A study of Mus musculus with 12 samples.

Results

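The 10 genes described here are hypoxia-type and angiogenic genes, chosen by name from textbook targets of the oxygen-sensing pathway: Vegfa, Adm, Slc2a1, Pgk1, Ldha, Bnip3, Egln3, Ndrg1, Pfkfb3 and Ankrd37. All 10 were found among the 49671 genes of the count tables, and 10 of 10 were among the 18668 tested genes, those with more than 1 read in 3 or more libraries. The cells were NIH 3T3, mouse fibroblasts of embryonic origin that grow without limit in culture, sequenced as RNA in 4 groups with 3 libraries apiece. Every group had been transfected with an siRNA. Control siRNA treated cells received the AllStars negative control and Lap2-depleted cells a single siRNA against all isoforms of Lap2 (lamina-associated polypeptide 2, a family of nuclear proteins encoded by Tmpo). Each was kept in 0.3% FBS (serum-starved) or given 15% FBS for 45 min (serum-stimulated). Neither the labels nor the methods give a low-oxygen treatment of any group.

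In cells, HIF (hypoxia-inducible factor) is a pair of proteins, an α subunit encoded by Hif1a or Epas1 and a partner encoded by Arnt. When oxygen is present, prolyl hydroxylases (Egln1, Egln2, Egln3) mark the α subunit, the Vhl protein binds it and it is destroyed. When oxygen is short, the α subunit persists, and the pair binds the letters ACGTG or GCGTG in DNA and raises genes for glucose uptake, glycolysis, blood vessel growth and mitochondrial turnover. Growth factors in serum can also raise several of these genes without a lack of oxygen. MRTF-A and TCF proteins, the cofactors of SRF that the study followed, drive much of the early response of fibroblasts to serum.

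These RNA levels do not measure HIF protein or oxygen. Tmpo itself, the check of the siRNA, had 2822 ± 57.0 (SD, n = 3) and 3175 ± 136 (SD, n = 3) normalized counts in serum-starved and serum-stimulated control siRNA treated cells, and 1083 ± 97.3 (SD, n = 3) and 706 ± 87.0 (SD, n = 3) in Lap2-depleted cells. Total counts were 18026298 to 26265253 per library. Normalized counts are counts scaled to a common library size with TMM factors (0.893 to 1.12), and log2FC is the log2 fold change. The factors were 1.04 in starved and 0.893 to 0.905 in stimulated control siRNA treated libraries. In Lap2-depleted libraries they were 1.12 and 0.950 to 0.960, so they differed between the groups. Summed over 10 fibroblast markers (collagens, Fn1, Vim and others) the libraries had 865403 to 983560 normalized counts with control siRNA and 524926 to 711472 with Lap2 siRNA. Lap2 siRNA raised 2 and lowered 7 of these 10 markers in 0.3% FBS (17.8% and 18.6% of all tested genes were called so) and lowered 8 in 15% FBS (12.1% of all were), where the other 2 were not called, at an edgeR adjusted p under 0.05. With total-count scaling it raised 3 and lowered 6, then raised 2 and lowered 7, and the part of this shift in the results below was not tested. In such bulk libraries, fewer cells of a type and less RNA per cell cannot be told apart. Endothelial (8 genes), epithelial (6 genes) and leukocyte markers (6 genes) summed to at most 40.6, 40.2 and 53.9 normalized counts in any library. Nothing in the labels says that the 3 libraries of a group came from separate cultures, so p-values measure the spread between these samples, which may be technical.

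The letters to which HIF binds were looked for in the RefSeq promoter windows (250 bases before to 50 after each gene start, GRCm38.p6), since most of these genes are classed together as its targets. Windows were at hand for 9 of the 10 genes (12 windows, none for Ndrg1). The letters ACGTG, on either strand, stood in a window of 8 of the 9 genes, against 21.8% of the 27025 mouse genes with a window. The letters GCGTG stood in a window of 7 of the 9, against 35.2% of genes. A match is a description of the sequence and not a measured binding site. A stretch that reads CACGTG holds ACGTG on both strands. Vegfa had 1 match of each kind, both in a coding exon ahead of an internal start, and Adm had GCGTG alone. One motif or the other stood in 43.8% of all 32851 windows. Since the genes were chosen as targets of this pathway, their matches were likely beforehand and test nothing. A site of 25 bases is shown for each of 7 genes, which responded very differently below. It is ACGTG in all but Adm, and Pgk1 and Egln3 had no GCGTG. Each is written 5′ to 3′ along the gene's strand, with the matched letters in capitals (CACGC is GCGTG on the other strand).
Slc2a1: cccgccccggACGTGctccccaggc
Adm: caaatctgacCACGCccaccgtccg
Pgk1: gtcgtgcaggACGTGacaaatggaa
Ldha: cccagcctacACGTGggttcccgca
Bnip3: cacgcgccgcACGTGccacacgctc
Egln3: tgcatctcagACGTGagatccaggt
Pfkfb3: ccgcgccgtgACGTGccaagctgtg
The Slc2a1 site lies at chr4:119108699-119108723 (plus strand), across the annotated start of the gene, in part in exon sequence outside the coding part. Those of Adm (chr7:110627593-110627617, plus strand), Pgk1 (chrX:106186940-106186964, plus strand), Bnip3 (chr7:138909599-138909623, minus strand) and Egln3 (chr12:54204089-54204113, minus strand) lie upstream of the gene. The Ldha site (chr7:46845747-46845771, plus strand) is in an intron of the longest annotated gene span, ahead of a RefSeq start. The Pfkfb3 site (chr2:11553975-11553999, minus strand) is in noncoding exon sequence. A CArG box, the element to which SRF binds, was found in 1 of the 12 windows (Ldha), against 1.6% of all 32851 windows.

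The first comparison asked how the genes responded to 45 min of serum in control siRNA treated cells. Vegfa, Adm and Slc2a1 rose by 3.65-fold to 12.7-fold, Ldha rose by 1.18-fold and Ankrd37 fell by 2.59-fold, while Pgk1, Bnip3, Egln3, Ndrg1 and Pfkfb3 were not called. That is 4 of 10 called higher, where 15.6% of all tested genes were, and 1 of 10 called lower, where 13.9% were (edgeR's quasi-likelihood test, adjusted p under 0.05). The median log2FC of the 10 genes was 0.17, against -0.01 for all tested genes. The genes were chosen with earlier results of these data known, so such shares, here and below, do not test enrichment.

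Adm encodes adrenomedullin, a secreted peptide that widens blood vessels and promotes their growth. The gene lies at 7:110627661-110629820 of mm10 (plus strand). In serum-starved control siRNA treated cells its normalized counts were 192, 188 and 222, and in serum-stimulated ones 2501, 2521 and 2591. The lowest stimulated library stood far above the highest starved one. The log2FC was 3.66 (SE 0.11, edgeR adjusted p = 2.1e-23), the largest serum response of the 10 genes.

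Slc2a1 encodes GLUT1, the main glucose transporter of most cultured cells (4:119108711-119137983, plus strand). Its normalized counts were 2572, 2158 and 2156 in starved and 12506, 12752 and 14140 in stimulated control siRNA treated cells. The groups were far apart, with a log2FC of 2.52 (SE 0.07, edgeR adjusted p = 2.0e-24). Vegfa encodes the endothelial growth factor VEGF-A (17:46016993-46032369, minus strand). It had 1055, 986 and 1076 normalized counts in starved and 3604, 3501 and 4283 in stimulated cells. Here too no library overlapped, and the log2FC was 1.87 (SE 0.10, edgeR adjusted p = 8.3e-17).

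Ankrd37, a small ankyrin-repeat protein gene classed among HIF targets (8:45996902-46005707, minus strand), moved the other way. It had 91.3, 65.0 and 97.1 normalized counts in starved and 39.9, 33.6 and 22.3 in stimulated control siRNA treated cells, so all 3 libraries were lower after serum. The log2FC was -1.37 (SE 0.24, edgeR adjusted p = 2.1e-05). Its counts were the lowest of the 10 genes, 20 to 93 reads per library. It shares 57 exonic bases with Ufsp2 on the opposite strand (665 to 725 normalized counts on average per group), and whether reads were counted by strand is not stated.

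The glycolytic enzymes stood apart from the glucose transporter. Ldha encodes the lactate dehydrogenase subunit that turns pyruvate into lactate (7:46841475-46855627, plus strand). It had 8931, 7703 and 7673 normalized counts in starved and 9614, 9711 and 9474 in stimulated control siRNA treated cells. The groups did not overlap but were close, at a log2FC of 0.24 (SE 0.07, edgeR adjusted p = 0.0080). This call was lost when libraries were scaled to total counts (log2FC 0.04, adjusted p = 0.73) or to upper quartiles (0.15, adjusted p = 0.12). Pgk1, the glycolytic enzyme phosphoglycerate kinase (X:106187100-106203699, plus strand), had a log2FC of 0.11 (SE 0.06, edgeR adjusted p = 0.20), and -0.10 with total-count scaling. Pfkfb3, whose product makes the sugar phosphate that activates phosphofructokinase (2:11471433-11554077, minus strand), had a log2FC of 0.23 (SE 0.14, edgeR adjusted p = 0.25).

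For the remaining 3 genes the starved and stimulated values lay close together. Bnip3, a mitochondrial protein of mitophagy and cell death (7:138890836-138909519, minus strand), had a log2FC of -0.07 (95% interval -0.24 to 0.09). Egln3, the oxygen sensor that is itself a HIF target (12:54178981-54203860, minus strand), had -0.23 (interval -0.49 to 0.03). Ndrg1, a stress-responsive gene of growth arrest and differentiation (15:66929318-66969640, minus strand), had -0.14 (interval -0.27 to -0.01, edgeR adjusted p = 0.10). With total-count scaling, which moved the median of all genes by -0.21, Bnip3, Egln3 and Ndrg1 were all called lower, at -0.28, -0.44 and -0.35, which made 4 of 10 called lower and 3 higher. Upper-quartile scaling gave 3 of each. Ndrg1 was also called lower without replicate 1 of the starved control cells (-0.19), for 2 of 10 in all. For all genes the split of higher to lower calls was 2915 to 2597 with TMM, 1632 to 5847 with total counts and 2183 to 3878 with upper quartiles.

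**Figure D1:**
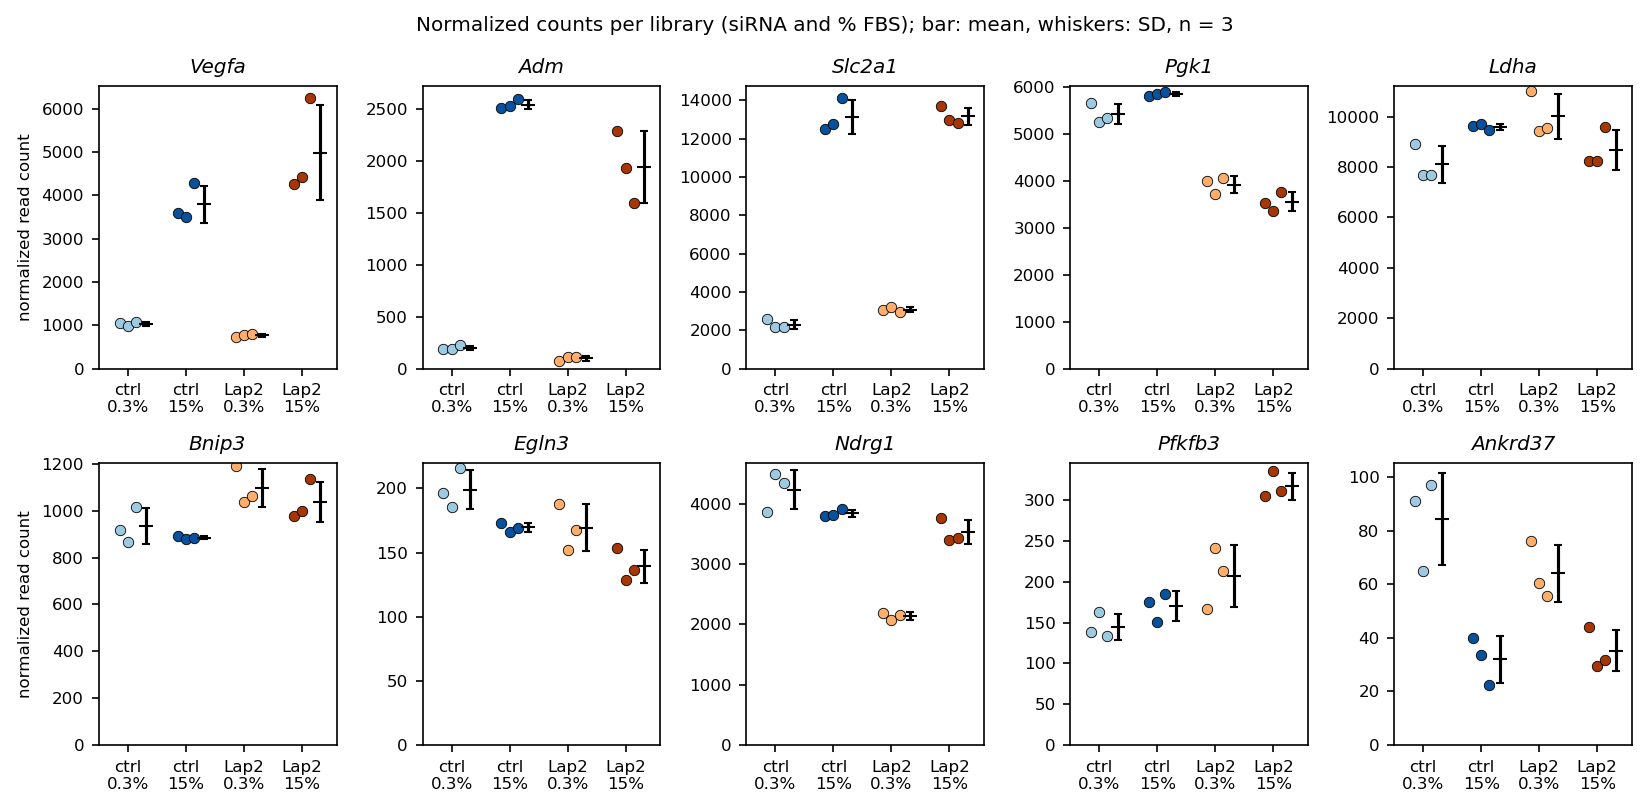
Normalized read counts (vertical axis, from 0 in each panel) of the 10 genes in every library, by siRNA (ctrl, control siRNA; Lap2, Lap2 siRNA) and percent FBS, with the mean and SD of 3 libraries beside the points. Vegfa, Adm and Slc2a1 rise steeply with serum under both siRNAs, Pgk1 is lower in all Lap2-depleted libraries (3364 to 4063) than in all control libraries (5265 to 5893), and Ndrg1 is low in starved Lap2-depleted cells alone (2066 to 2184).

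Compared per length, as RPKM (normalized counts per kilobase of annotated exon, scaled to the usual common library size), the order of the genes changed with serum. In starved control siRNA treated cells Ldha (116 ± 10.3, SD, n = 3) and Pgk1 (115 ± 4.61) led and did not differ beyond their spread. Slc2a1 (31.0 ± 3.24) and Ndrg1 (30.4 ± 2.34) came next, again within their spread, followed by Bnip3 (19.5 ± 1.59), Vegfa (11.5 ± 0.523), Adm (5.88 ± 0.545), Egln3 (3.55 ± 0.274), Ankrd37 (2.60 ± 0.527) and Pfkfb3 (0.909 ± 0.0982). After serum Slc2a1 led with an RPKM of 178 ± 11.9 (SD, n = 3), above Ldha (138 ± 1.71) and Pgk1 (124 ± 0.897). Adm passed Vegfa, Bnip3 and Ndrg1 to reach 74.3 ± 1.37. At the bottom, Pfkfb3 (1.07 ± 0.113) and Ankrd37 (0.984 ± 0.275) no longer differed beyond their spread. These levels use the summed exon length, which is longer than any single transcript of most genes.

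The second comparison asked for the same serum response in Lap2-depleted cells. Vegfa, Adm and Slc2a1 again rose, by 6.47-fold, 20.1-fold and 4.28-fold, and Ndrg1 (1.65-fold) and Pfkfb3 (1.54-fold) rose as well. Ankrd37 fell by 1.84-fold and Ldha by 1.15-fold. In all, 5 of 10 genes were called higher (18.3% of all tested genes were) and 2 of 10 lower (14.9% were). The median log2FC was 0.27 for the 10 genes and 0.003 for all genes. The former lies in a gap between Pfkfb3 (0.62) and Bnip3 (-0.08). With total-count scaling, which moved the median of all genes by -0.23, 5 were higher and 5 lower, and with upper quartiles, which moved it by -0.11, 5 and 4. Over all genes TMM gave 3420 higher and 2777 lower calls, total counts 1658 and 5951, and upper quartiles 2383 and 3942.

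Vegfa had 731, 785 and 799 normalized counts in starved and 4275, 4430 and 6253 in stimulated Lap2-depleted cells. Replicate 3 of the stimulated group stood well above the other two, and all 3 were far above the starved libraries. The log2FC was 2.69 (SE 0.10, edgeR adjusted p = 9.5e-21). Adm had 70.7, 106 and 113 normalized counts in starved and 2287, 1928 and 1591 in stimulated Lap2-depleted cells. In this group replicate 3, which was highest for Vegfa, was lowest for Adm. Its log2FC of 4.33 (SE 0.13, edgeR adjusted p = 5.5e-24) was again the largest of the 10. Slc2a1 had 3072, 3196 and 2940 normalized counts in starved and 13679, 12961 and 12817 in stimulated Lap2-depleted cells, a clean separation with a log2FC of 2.10 (SE 0.07, edgeR adjusted p = 3.0e-22).

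Ndrg1 had 2184, 2066 and 2157 normalized counts in starved and 3753, 3390 and 3427 in stimulated Lap2-depleted cells, and these groups did not overlap. The log2FC was 0.72 (SE 0.07, edgeR adjusted p = 8.1e-11). Pfkfb3 had 167, 241 and 213 normalized counts before and 305, 336 and 311 after serum, also without overlap (log2FC 0.62, SE 0.13, edgeR adjusted p = 2.0e-04). Ankrd37 went from 76.2, 60.3 and 55.6 to 43.9, 29.7 and 31.9 normalized counts, all lower after serum (log2FC -0.88, SE 0.25, edgeR adjusted p = 0.0051). Ldha went from 11036, 9431 and 9563 to 8240, 8221 and 9578 normalized counts, groups that overlapped. Its log2FC of -0.21 (SE 0.07, edgeR adjusted p = 0.025) was no longer called without replicate 1 (-0.17) or replicate 2 (-0.17) of the stimulated or replicate 1 (-0.15) of the starved Lap2-depleted cells. Pgk1, Bnip3 and Egln3 had log2FC values of -0.14, -0.08 and -0.29 and were not called (edgeR adjusted p = 0.083, 0.50 and 0.099). Pgk1 was called lower in this comparison by DESeq2 (log2FC -0.16, adjusted p = 0.020) and with either other scaling. It was also called without replicate 1 of starved control siRNA treated cells (-0.16), replicate 1 (-0.14) or 2 (-0.19) of starved or replicate 3 (-0.20) of stimulated Lap2-depleted cells. Because of Pgk1 and Ldha, leaving out 1 library gave 1 to 3 of the 10 genes called lower.

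**Figure D2:**
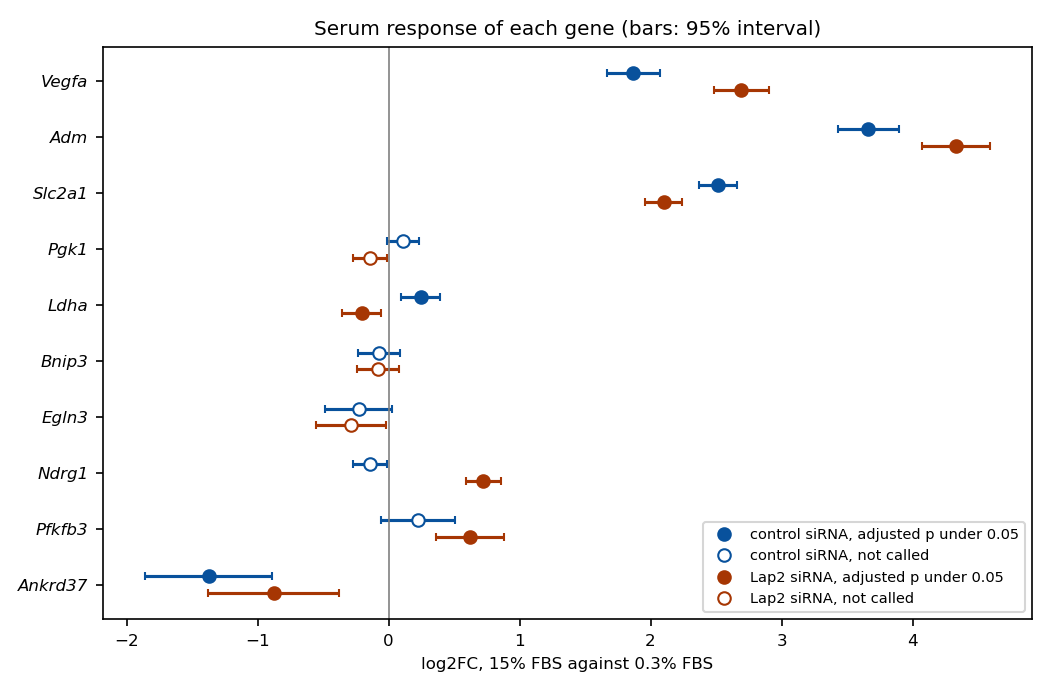
Serum response of each gene as log2FC of 15% FBS against 0.3% FBS (horizontal axis) in control siRNA treated (blue) and Lap2-depleted cells (brown), with 95% intervals; filled points have an edgeR adjusted p under 0.05. The intervals of Vegfa (1.67 to 2.07 and 2.48 to 2.90), Ndrg1 (-0.27 to -0.01 and 0.59 to 0.86) and Slc2a1 (2.37 to 2.66 and 1.95 to 2.24) do not touch between the siRNAs. Those of Adm (3.43 to 3.90 and 4.07 to 4.59) and Ldha (0.10 to 0.39 and -0.35 to -0.06) do not touch either.

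Whether the serum response differed between the siRNAs was tested as the interaction, the log2FC with Lap2 siRNA minus that with control siRNA. Of the 10 genes, 3 had a larger value with Lap2 siRNA (7.09% of all tested genes did) and 2 a smaller one (6.51% did). Ndrg1 (0.86, SE 0.09, edgeR adjusted p = 2.3e-08), Vegfa (0.82, SE 0.14, adjusted p = 6.0e-05) and Adm (0.67, SE 0.18, adjusted p = 0.0090) were the 3 with a higher value. Ldha (-0.45, SE 0.10, adjusted p = 0.0019) and Slc2a1 (-0.42, SE 0.10, adjusted p = 0.0028) were those with a lower one. The difference of Adm was not called without replicate 1 of starved Lap2-depleted cells (0.44) or replicate 3 of starved control siRNA treated cells (0.57). For Pgk1 (-0.25, SE 0.09, adjusted p = 0.052), Pfkfb3 (0.39, SE 0.19, adjusted p = 0.19) and Ankrd37 (0.50, SE 0.35, adjusted p = 0.41) the difference did not pass. That of Pgk1 passed without replicate 1 of starved control siRNA treated cells (-0.31), replicate 1 (-0.27) or 2 (-0.32) of starved or replicate 3 (-0.30) of stimulated Lap2-depleted cells. Bnip3 and Egln3 had differences of -0.005 (95% interval -0.23 to 0.22) and -0.06 (interval -0.43 to 0.31).

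The third comparison asked what Lap2 siRNA did in serum-starved cells. Adm fell by 2.08-fold, Ndrg1 by 1.98-fold, Pgk1 by 1.38-fold and Vegfa by 1.35-fold, whereas Pfkfb3 rose by 1.42-fold, Slc2a1 by 1.34-fold, Ldha by 1.24-fold and Bnip3 by 1.18-fold. Egln3 and Ankrd37 were not called. So 4 of 10 were called higher (17.8% of all tested genes were) and 4 of 10 lower (18.6% were). The median log2FC was -0.31, against 0.01 for all genes. That median lies midway between Ankrd37 (-0.39) and Egln3 (-0.23), neither of which was called. The counts of 4 and 4 were also found with total-count scaling, which moved the median of all genes by 0.11 and gave 4692 higher and 2638 lower calls, against 3330 and 3480 with TMM.

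The starved libraries were well separated for the genes that fell. Adm had at most 113 normalized counts in the Lap2-depleted libraries and at least 188 in the control ones (log2FC -1.06, SE 0.15, edgeR adjusted p = 6.3e-07). Ndrg1 had at most 2184 against at least 3865 (log2FC -0.99, SE 0.07, edgeR adjusted p = 6.0e-14). Vegfa had at most 799 against at least 986 (log2FC -0.43, SE 0.10, edgeR adjusted p = 0.0011). Pgk1 had 3997, 3714 and 4063 normalized counts in starved Lap2-depleted cells and 5672, 5265 and 5334 in starved control siRNA treated cells. Those groups did not overlap either (log2FC -0.47, SE 0.06, edgeR adjusted p = 1.9e-07). Its near-identical copy Pgk1-rs7 carried 149 to 411 reads per library, so a small part of the Pgk1 reads may have been divided between them.

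Among the genes that rose, Slc2a1 and Pfkfb3 differed in how firmly they did so. Every starved Lap2-depleted library had more Slc2a1 (at least 2940) than every starved control library (at most 2572), with a log2FC of 0.42 (SE 0.07, edgeR adjusted p = 1.0e-05). Pfkfb3 ranged from 167 to 241 against 134 to 163 (log2FC 0.51, SE 0.14, edgeR adjusted p = 0.0032), a gap of a few reads between the nearest libraries. Ldha had a log2FC of 0.31 (SE 0.07, edgeR adjusted p = 8.3e-04), and its nearest libraries were 9431 and 8931. Bnip3 had 1189, 1037 and 1061 normalized counts against 918, 866 and 1016 (log2FC 0.23, SE 0.08, edgeR adjusted p = 0.018). Its call was lost without replicate 1 of these Lap2-depleted (0.19) or replicate 2 of the control cells (0.20), and in a fit of only the 2 groups (0.22, adjusted p = 0.054).

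In serum-stimulated cells, the fourth comparison, Lap2 siRNA left Pfkfb3 1.86-fold higher, Vegfa 1.31-fold higher and Bnip3 1.17-fold higher, and Pgk1 1.65-fold and Adm 1.31-fold lower. These were 3 of 10 called higher (11.4% of all tested genes were) and 2 of 10 called lower (12.1% were), with a median log2FC of -0.06, against 0.02 for all genes. Over all genes the split of higher to lower calls was 2125 to 2250, and 3471 to 1678 with total-count scaling, which left the counts of the 10 genes at 3 and 2.

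Pgk1 had 3536, 3364 and 3773 normalized counts in stimulated Lap2-depleted cells and 5809, 5864 and 5893 in stimulated control siRNA treated cells. The separation was wide (log2FC -0.72, SE 0.06, edgeR adjusted p = 8.6e-11), and of the 10 genes Pgk1 and Adm were called lower by Lap2 siRNA in both serum conditions. Pfkfb3 had 305, 336 and 311 against 176, 150 and 185 (log2FC 0.90, SE 0.13, edgeR adjusted p = 2.1e-06), also well apart. Adm had 2287 at most against 2501 at least (log2FC -0.39, SE 0.09, edgeR adjusted p = 0.0018).

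For Vegfa the stimulated groups overlapped, since the lowest Lap2-depleted library (4275) was below the highest control library (4283). Its log2FC of 0.39 (SE 0.09, edgeR adjusted p = 0.0016) rested on replicate 3 of the Lap2-depleted cells, without which it was 0.19 (adjusted p = 0.098). Bnip3 (log2FC 0.23, SE 0.08, edgeR adjusted p = 0.033) was not called without that library either (0.15, adjusted p = 0.28), so that 1 of 10 was then called higher. It was also lost without replicate 1, 2 or 3 of the stimulated control cells (0.22, 0.22 and 0.23). Slc2a1 was level between the siRNAs after serum, with a log2FC of 0.002 (95% interval -0.14 to 0.14). Ndrg1, which had been far lower in starved Lap2-depleted cells, had a log2FC of -0.12 after serum (interval -0.26 to 0.01, edgeR adjusted p = 0.19). Ldha, Egln3 and Ankrd37 had -0.15, -0.29 and 0.11 and were not called (edgeR adjusted p = 0.16, 0.13 and 0.84). Ldha was called lower without replicate 3 of stimulated (-0.23) or replicate 1 of starved Lap2-depleted cells (-0.16).

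**Figure D3:**
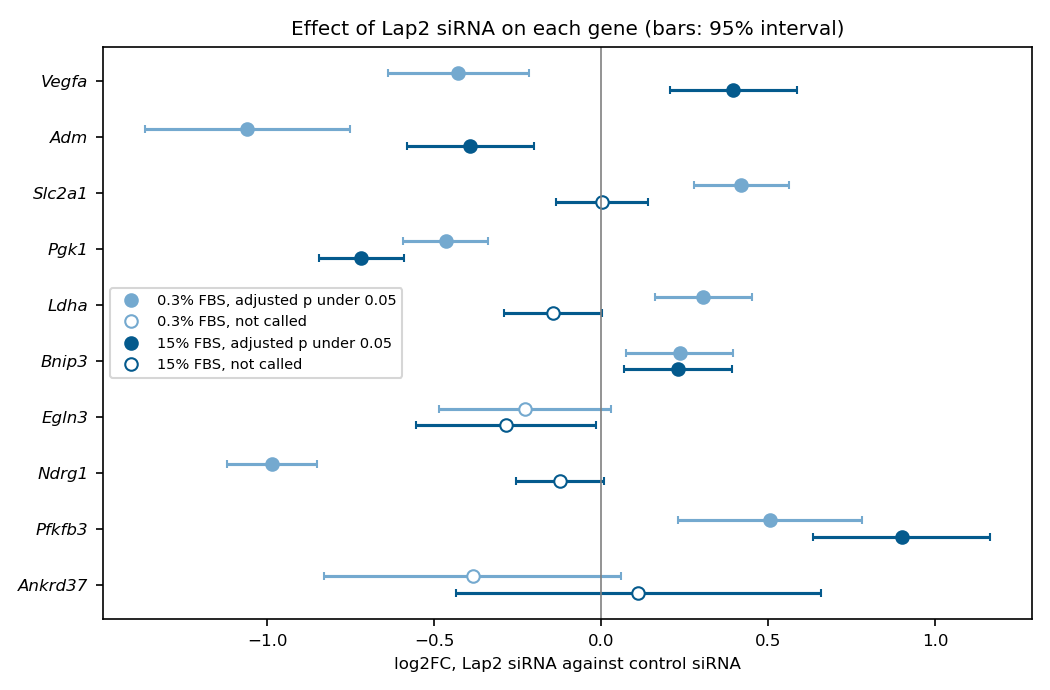
Effect of Lap2 siRNA on each gene as log2FC against control siRNA (horizontal axis) in 0.3% FBS (light blue) and 15% FBS (dark blue), with 95% intervals; filled points have an edgeR adjusted p under 0.05. Pgk1, Adm and Egln3 are below 0 in both conditions, Egln3 without a call. Pfkfb3 and Bnip3 are above 0 in both, and the calls of Bnip3 were lost with some single libraries left out. Vegfa lies at -0.43 in 0.3% FBS and 0.39 in 15% FBS, and Ndrg1 at -0.99 and -0.12.

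The other genes of the pathway were taken from lists by role. Of 13 genes for HIF subunits, oxygen sensors and their partners, serum raised 3 and lowered 2 with control siRNA, and raised 4 and lowered 3 with Lap2 siRNA (3 and 7, then 2 and 5, with total-count scaling). Lap2 siRNA raised 2 and lowered 4 in 0.3% FBS and raised 2 and lowered none (0 of 13) in 15% FBS. In that last comparison 1 was lower at an unadjusted p under 0.05 in edgeR, and 1 by DESeq2. Hif1a, the α subunit, rose with serum under both siRNAs, from 4714 ± 319 to 7757 ± 266 normalized counts (SD, n = 3) with control siRNA and from 4611 ± 241 to 7590 ± 292 with Lap2 siRNA. The log2FC was 0.72 in each (SE 0.06, edgeR adjusted p = 3.6e-11 and 4.4e-11), and Lap2 siRNA gave -0.03 in both serum conditions. Epas1, the other α subunit, had 1 to 8 reads per library. Arnt, the partner subunit, was lower with Lap2 siRNA in 0.3% FBS (log2FC -0.39, SE 0.07, edgeR adjusted p = 2.6e-05) and was not called in 15% FBS (-0.19, adjusted p = 0.050).

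Vhl, which leads the α subunit to destruction, fell with serum in control siRNA treated cells (log2FC -0.60, SE 0.08, edgeR adjusted p = 3.6e-07) and had 0.21 in Lap2-depleted cells (adjusted p = 0.050). The difference between those responses was 0.81 (SE 0.12, edgeR adjusted p = 5.0e-06). Egln2 fell with serum in control siRNA treated cells (log2FC -0.39, edgeR adjusted p = 2.0e-05) and was higher with Lap2 siRNA in 15% FBS (0.34, adjusted p = 1.9e-04). Egln1 was lower with Lap2 siRNA in 0.3% FBS alone among the 4 comparisons (log2FC -0.20, edgeR adjusted p = 0.025), a call lost with total-count scaling. Cited2, which competes with HIF for its coactivator, turned its direction. It had 2286 ± 66.0 and 3177 ± 307 normalized counts (SD, n = 3) before and after serum with control siRNA, and 4236 ± 211 and 3062 ± 53.3 in Lap2-depleted cells (interaction -0.94, SE 0.10, edgeR adjusted p = 7.9e-09).

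Of 20 further genes of glucose transport and glycolysis, serum raised 4 and lowered 1 with control siRNA, and raised 3 and lowered 4 with Lap2 siRNA. The direction of this list depended on the scaling, since total counts gave 1 higher and 7 lower with the control and 2 and 9 with the Lap2 siRNA. All tested genes moved the same way, to 1632 higher and 5847 lower of 18668 with the control and 1658 and 5951 with the Lap2 siRNA. Hk2, the hexokinase that traps glucose in the cell, rose under every scaling, from 411 ± 19.8 to 1767 ± 192 normalized counts (SD, n = 3) with control siRNA (log2FC 2.10, SE 0.10, edgeR adjusted p = 5.0e-18). With Lap2 siRNA it rose from 582 ± 106 to 3115 ± 311 (log2FC 2.43, SE 0.10, edgeR adjusted p = 4.8e-20). Lap2 siRNA raised 6 and lowered 2 of the 20 in 0.3% FBS. Hk2 (log2FC 0.50), Pgam1 (0.48) and Pkm (0.45), enzymes of the first and the late steps, were among those higher. Pfkfb4 was lower (-0.34, edgeR adjusted p = 0.041), a call lost with either other scaling. In 15% FBS Lap2 siRNA raised 2, Hk2 (0.82) and Pdk1 (0.48), a kinase that keeps pyruvate out of the mitochondria, and lowered 3. With total-count scaling 10 were higher and 1 was lower in 0.3% FBS, while in 15% FBS 5 were higher and the 3 lower calls, Pfkl, Aldoa and Pfkfb4, were lost. The background shares for the counts of this and the other lists are those given above for each comparison. For the counts with total-count scaling, the calls over all genes with that scaling, also given above, are the background.

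Of 24 other genes commonly induced by hypoxia, 23 were tested. Serum raised 8 and lowered 5 with control siRNA, and raised 9 and lowered 3 with Lap2 siRNA (5 and 8, then 6 and 9, with total-count scaling). Bhlhe40, a transcriptional repressor of the clock and of stress responses, rose most, by a log2FC of 3.48 (SE 0.08, edgeR adjusted p = 1.6e-26) and 3.30 (adjusted p = 6.5e-26). Hmox1, which breaks down heme, followed with 2.47 and 2.61. Angptl4, a secreted inhibitor of lipoprotein lipase, fell with both siRNAs (log2FC -1.44 and -1.07), and Hilpda, a lipid droplet protein, fell too (-1.49 and -0.71). Lap2 siRNA raised 6 and lowered 4 in 0.3% FBS, and raised 6 and lowered 3 in 15% FBS (11 and 4, then 9 and 3, with total-count scaling). Ddit4, an inhibitor of the growth kinase mTOR, had 1287 ± 33.7 and 1196 ± 47.8 normalized counts (SD, n = 3) before and after serum with control siRNA, and 1419 ± 60.0 and 3074 ± 286 in Lap2-depleted cells. The difference between its serum responses was 1.22 (SE 0.10, edgeR adjusted p = 9.2e-11). Gbe1, the glycogen branching enzyme, was higher with Lap2 siRNA in both conditions (log2FC 1.20 and 0.76, edgeR adjusted p = 9.5e-11 and 2.1e-06). Among the genes lowered in 0.3% FBS were Rora (log2FC -0.83, edgeR adjusted p = 5.2e-08) and Plod2 (-0.56, adjusted p = 1.9e-05).

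Of 20 angiogenic ligands and receptors 16 were tested, and Lap2 siRNA raised 2 and lowered 7 in 0.3% FBS and raised 1 and lowered 8 in 15% FBS, with median log2FC values of -0.67 and -0.33 (3 and 6, then 1 and 7, with total-count scaling). Serum raised 2 and lowered 2 with control siRNA, and raised 6 and lowered 3 with Lap2 siRNA (2 and 5, then 4 and 5, with total-count scaling). Vegfb, a relative of Vegfa, fell from 1185 ± 42.4 to 583 ± 27.4 normalized counts (SD, n = 3) in 0.3% FBS and from 991 ± 22.7 to 437 ± 31.2 in 15% FBS (log2FC -1.02 and -1.18, edgeR adjusted p = 7.9e-13 and 2.4e-13). Vegfd (log2FC -0.68, edgeR adjusted p = 2.6e-08) and the coreceptor Nrp1 (-0.66, adjusted p = 9.7e-09) were lower in 0.3% FBS. The receptor of adrenomedullin is built from the products of Calcrl and Ramp2 or Ramp3. Calcrl fell from 174 ± 12.3 to 92.6 ± 19.2 in 0.3% FBS and from 171 ± 13.4 to 67.0 ± 5.04 in 15% FBS (log2FC -0.91 and -1.34, edgeR adjusted p = 7.9e-06 and 6.0e-08). Ramp2, named after its values were seen, fell by 2.73 and 1.19 on the log2 scale at 11 to 137 reads per library, while Ramp3, also named so, had 0.04 and 0.13 (edgeR adjusted p = 0.76 and 0.34). Ackr3, a scavenger receptor for a chemokine and for adrenomedullin, was higher with Lap2 siRNA in 15% FBS (log2FC 0.81, SE 0.07, edgeR adjusted p = 1.1e-10). Kdr, the main VEGF-A receptor of endothelium, had 0 to 3 reads per library. Flt1 and Angpt2 of this list, also named after their values were seen, averaged more with Lap2 siRNA, at low counts. In 0.3% FBS Flt1 had 33.7 ± 3.97 normalized counts (SD, n = 3) with control and 111 ± 26.5 with Lap2 siRNA. Angpt2 had 25.5 ± 7.77 and 73.1 ± 24.7. In 15% FBS the values were 78.0 ± 9.37 and 97.4 ± 24.5 for Flt1, and 23.6 ± 12.4 and 36.3 ± 22.1 for Angpt2.

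**Figure D4:**
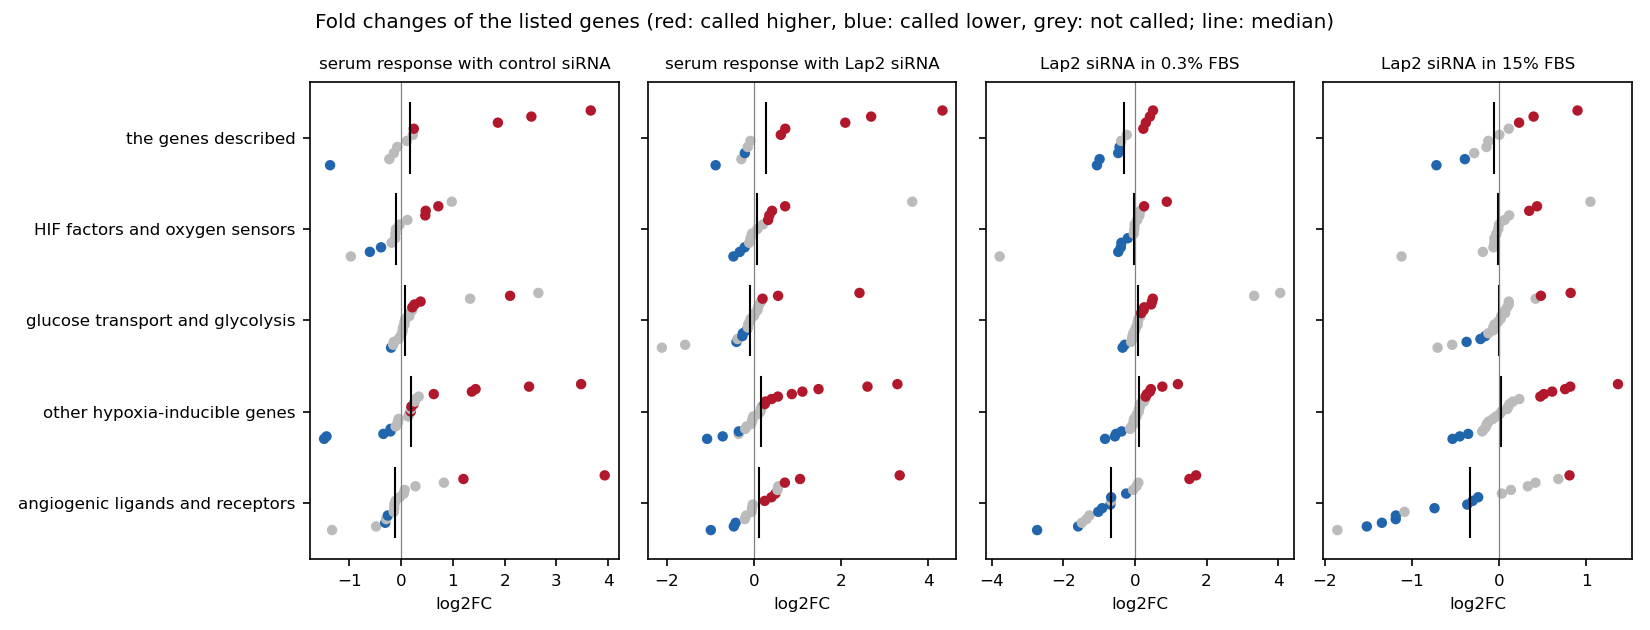
Fold changes (horizontal axis, log2FC) of the 10 genes and of 4 lists of related genes in the 4 comparisons; each point is a tested gene, colored by its edgeR call, and the line is the median of the list. The median of the angiogenic list lies left of 0 in both Lap2 comparisons (-0.67 and -0.33), whereas the other 3 lists have medians between -0.10 and 0.19 in all 4 comparisons.

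To describe each pattern across all 12 libraries, the gene whose log2 count, scaled to library size, followed it most closely was taken from the 10448 or 10449 genes that averaged 100 or more normalized counts. These correlations are over the same 12 libraries and share their depth and scaling. The 3 steep serum genes were followed closely, with Plk3 for Slc2a1 (Pearson r = 0.999), Uap1 for Adm (r = 0.994) and Zfp593 for Vegfa (r = 0.993). Ndrg1 was followed by Igfbp4 (r = 0.996), Pgk1 by Acat2 (r = 0.985), Ankrd37 by Yeats4 (r = 0.973) and Pfkfb3 by Opcml (r = 0.972). The genes with the smallest changes had looser ones, Med9 for Egln3 (r = 0.932), Med6 for Bnip3 (r = 0.930) and Ak1 for Ldha (r = 0.897). No 2 of the 10 genes named the same follower.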

How the data were processed

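The authors aligned reads of 12 rRNA-depleted, directional libraries to mm10 with TopHat2 and counted them per gene with HTSeq (versions not given in the sources used here), and the deposited counts are raw, with no normalization. The strand setting of the counting is not stated. Symbols were matched for 49326 of 49671 identifiers, and coordinates are those of GENCODE M21. Counts were tested with edgeR 4.0.16 in R 4.3.3: TMM, more than 1 read in 3 or more libraries, a mean for each of 4 groups, quasi-likelihood tests of 5 contrasts and Benjamini-Hochberg adjustment over 18668 genes (threshold 0.05). The procedure was tested on simulated data. Alternatives were total-count and upper-quartile scaling, DESeq2 1.42.0, 2 other filters, fits restricted to the compared groups, a block for replicate number and each library left out. Named genes were the 10 genes, Tmpo, 6 HIF factors, the closest follower of each gene, and genes overlapping one or sharing its sequence. From each list, up to 4 called genes per comparison were named, with at least 100 normalized counts and the largest log2FC. The members and lists were chosen with earlier results of these data known.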

Additional observations from a re-analysis of the deposited data

Results flagged for a closer look

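For 5 of the 10 genes the response to serum differed between the siRNAs by the test of the difference itself, 3 higher and 2 lower. Over all tested genes 7.09% and 6.51% were called so. The log2FC with Lap2 siRNA exceeded that with control siRNA by 0.86 for Ndrg1, 0.82 for Vegfa and 0.67 for Adm, and was below it by a difference of -0.45 for Ldha and -0.42 for Slc2a1. In these genes the starved cells already differed between the siRNAs. Ndrg1, Vegfa and Adm were lower with Lap2 siRNA in 0.3% FBS (log2FC -0.99, -0.43 and -1.06), and Slc2a1 and Ldha were higher (0.42 and 0.31). After serum the siRNAs differed by -0.12, 0.39 and -0.39 for the first 3 genes and by 0.002 and -0.15 for Slc2a1 and Ldha. The Vegfa value of 0.39 rested on replicate 3 of stimulated Lap2-depleted cells (0.19 without it). The interaction of Adm was not called without replicate 1 of starved Lap2-depleted (0.44) or replicate 3 of starved control siRNA treated cells (0.57). Ldha had serum values of opposite sign, 0.24 and -0.21, but neither call was firm. The rise was not called with total-count (0.04) or upper-quartile scaling (0.15). The fall was not called in a fit of only the 2 groups (-0.22, edgeR adjusted p = 0.057), and its groups overlapped. With 3 libraries in a group, single libraries were not screened for outliers.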

How the results depend on the processing

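Of 940 values of the 10 genes under alternatives, 874 kept their direction and side of the threshold, 28 passed it in addition, 16 lost it and 22 changed sign. Serum calls depended most on the scaling. With total counts, 4 of 10 genes were lower with control siRNA and 5 with Lap2 siRNA, and with upper quartiles 3 and 4, against 1 and 2. Fitting only the 2 groups gave 1 lower with Lap2 siRNA. With each library left out these counts were 1 to 2 and 1 to 3, and the count called higher by Lap2 siRNA in 15% FBS was 1 to 3. Signs turned in values near 0 that were not called: Pgk1 with control siRNA under total counts (-0.097), and Slc2a1 for Lap2 siRNA in 15% FBS under DESeq2 (-0.011), any count (-0.0071), filterByExpr (-0.0065) and 2 groups only (-0.0075). Leaving out libraries gave -0.044 to 0.062 for the latter, -0.074 to 0.30 for Ankrd37 in that comparison, -0.11 to 0.00096 for Bnip3 with serum and control siRNA, and -0.097 to 0.034 for its interaction. The replicate number did not pair the libraries (correlations of same-numbered libraries -0.12 to 0.099), and with it as a block the counts called with serum and control siRNA were still 4 higher and 1 lower, and no call of the 10 genes changed. The interaction of Pgk1 was called by DESeq2 (-0.28, adjusted p = 0.0057), filterByExpr and both other scalings. Total-count scaling leaves out the TMM factors, which were lower after serum with either siRNA. Why they were lower, and the cause of the other shifts, was not tested. At 20 to 93 reads, depth limits Ankrd37 most.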

Other observations

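Apart from Ufsp2, which overlaps Ankrd37 and had 551 to 843 reads per library, the genes that overlap the 10 had at most 26 reads in any library. Gm12868, an antisense gene sharing 105 exonic bases with Slc2a1, averaged 3.48 and 15.2 normalized counts before and after serum in control siRNA treated cells and 3.75 and 15.5 in Lap2-depleted cells. The microRNA gene Mir1957a, inside Slc2a1 on the same strand, had 0 and 6.85, then 1.03 and 6.04. Both averaged more after serum, as Slc2a1 did, and whether these reads came from Slc2a1 transcripts was not tested. Gm17035, antisense to Ndrg1 with 419 shared exonic bases, had 12.4 and 12.6 in the former and 3.29 and 6.27 in the latter. Gm45507, antisense to Bnip3, had 1 to 14 reads per library. The related gene Ldhc and the Ldha copy Ldha-ps had 0 reads in all 12 libraries, and the copy Ldha-ps2 had 0 to 1.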
